A study of Mus musculus with 4 samples.

Results

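Superoxide dismutases, catalase and glutathione peroxidases are enzymes that convert superoxide and peroxides. The genes were chosen by name (Sod1, Sod2, Sod3, Cat, Gpx1, Gpx3, Gpx4, Gpx7 and Gpx8), and every probe that the array annotation assigns to them was used. This gave 10 of the 39429 non-control probes for 9 of 30175 gene names, with 2 probes for Cat and 1 for each of the other genes. All 9 symbols and the transcripts of all 10 probes were found among the RefSeq genes of GRCm38.p6.

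The cells were NIH-3T3:Per2-Luc, a line of mouse fibroblasts that carry a luciferase under the *Per2* promoter, and their RNA was measured on 4 Cy3-labeled Agilent arrays of 1 slide. The control received 0 mM H2O2 and fresh medium, and its label gives 4 h. The other groups received a cOS-pulse (critical oxidative stress, 5 mM H2O2 for 10 min) and were harvested 4 h, 20 h or 32 h later. There was 1 array per group, so no test was run, the number of arrays limits the precision, and untreated cells at 20 h and 32 h were not analysed here.

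Superoxide dismutases turn superoxide into oxygen and hydrogen peroxide. Catalase, which sits mainly in peroxisomes, breaks hydrogen peroxide down to water and oxygen, and glutathione peroxidases reduce hydrogen peroxide or lipid hydroperoxides, most of them with electrons from glutathione. Gpx1, Gpx3 and Gpx4 encode enzymes with selenocysteine at the active site, whereas Gpx7 and Gpx8 encode enzymes with cysteine there.

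The level of a probe is given as its log2 signal minus the 75th percentile of log2 signals of its array. A probe was counted as measured on an array when the scanner software had marked 50% or more of its spots as well above background. This held for 53.4% of the non-control probes on the control array and for 59.1%, 55.2% and 52.7% at 4 h, 20 h and 32 h. The error beside a log2 ratio combines what the scanner software gave for the spots of both arrays, and does not cover differences between cultures. Of the 10 probes, 9 were well above background on all 4 arrays, and the Gpx3 probe was so on 0.

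Fibroblast markers were present on every array. Of 9 fibroblast genes, 8 were well above background on each of the 4 arrays, and Postn was below that limit throughout. Their summed signal, before scaling, was 408262 in the control, where Col1a2 made up the largest part, and 249740, 435008 and 396979 at 4 h, 20 h and 32 h. Not every gene followed the sum at 20 h. Before scaling, Col1a2, Vim and Fn1 were then above the control, and Thy1, Col1a1, Col3a1, Pdgfrb and Fbn1 were below it. The genes also split at 32 h. There, again before scaling, Col1a2, Vim and Fbn1 were above the control, and Thy1, Col1a1, Col3a1, Pdgfrb and Fn1 were below it. The 75th percentile of log2 signals itself differed from that of the control array by -0.28 at 4 h, 0.33 at 20 h and 0.18 at 32 h. The marker signals and sums given here were not corrected for this, so these directions hold for unscaled signals only. Fewer fibroblasts and less RNA per cell cannot be told apart in these bulk samples. Of 4 epithelial genes, 1 (Krt8) was well above background on each array, with Epcam, Cdh1 and Krt18 below that limit. The summed epithelial signal was 711 in the control and 1277, 1124 and 960.3 after the pulse. Of 3 endothelial genes, 3 were well above background on the control, 4 h and 20 h arrays and 2 at 32 h. The sums, most of them from Kdr, were 3572, 3926, 5880 and 5172. The 3 muscle genes were below that limit on every array, with sums of 56.4, 52.2, 55.7 and 58.5. Of 3 adipocyte genes, 1 was well above background in the control and at 20 h and 32 h and 2 at 4 h. The sums, with the largest part from Fabp4, were 108, 451, 74.7 and 84.9. Of 2 red cell genes, 1 (Hba-a1) passed at 4 h and 20 h and 0 in the control and at 32 h, with sums of 18.5, 55.8, 53.9 and 42.5. The part of any of these markers in the ratios of the enzymes was not tested.

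At 4 h after the cOS-pulse, 2 of the 10 probes exceeded the control at least 2-fold, the Sod2 probe and the 1st Cat probe, and 0 were at least 2-fold lower. Over all 39429 probes, 6.77% were at least 2-fold higher and 4.94% at least 2-fold lower by a measured ratio or a bound. Among the 20392 probes measured on both arrays, these shares were 8.63% and 7.91%. The median log2 ratio of the 9 measured probes of the enzymes was 0.014, against 0.17 over all measured probes. At this time 4 of the 9 lay above the control beyond the spot error, 3 lay below it beyond the spot error, and 2 were within it, while 75.8% of all measured probes lay beyond the spot error.

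The scaling of the arrays matters for these ratios at 4 h. Under the 75th percentile and the 5 other scalings tried, the median of all measured probes at 4 h lay between -0.23 and 0.17, and the share of higher probes among all those past 2-fold was 57.8% with the 75th percentile and between 25.6% and 57.8% over all of them. Relative to the median of all measured probes, Sod2 lay at 1.06, the 1st Cat probe at 0.99, Sod1 at 0.43 and the 2nd Cat probe at 0.40, while Gpx4 lay at -0.16, Gpx1 at -0.29, Gpx8 at -0.44, Gpx7 at -0.59 and Sod3 at -0.70. The 4 probes of Sod1, Sod2 and Cat were above the control under every scaling tried, and those of Sod3, Gpx1, Gpx7 and Gpx8 were below it under every scaling. The ratio of Gpx4 changed sign among them. Unless another scaling is named, what is said of the spot error refers to the 75th percentile scaling. Against it, all 9 ratios at 4 h moved by more than the spot error with scaling by the median, by the spike-in controls or with no scaling, as did 5 of them with quantile normalization and all 9 at 20 h with no scaling.

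At 20 h, 0 of the 10 probes were past 2-fold above the control and 0 past 2-fold below it. The shares over all probes were 0.763% higher and 1.87% lower, or 0.704% and 2.05% among the measured ones. At 32 h the counts were again 0 and 0, with 1.15% of all probes higher and 1.43% lower, or 1.05% and 1.5% among the measured ones. Between 20 h and 32 h, the hours that the study set against each other for circadian fluctuation, 0 probes of the enzymes were past 2-fold in either direction. Over all probes 0.497% were at least 2-fold higher at 20 h than at 32 h and 1.06% at least 2-fold lower, or 0.193% and 0.449% among the measured ones. The median ratio of the enzymes was 0.014 at 20 h, 0.020 at 32 h and -0.05 for 20 h over 32 h, against -0.0034, -0.0062 and 0.0083 over all measured probes. The higher share of all probes past 2-fold was 29.0% at 20 h, 44.4% at 32 h and 31.9% for 20 h over 32 h, and over the scalings tried it reached 65.4%, 62.7% and 42.1%. All 3 comparisons with the control share its array, so a deviation of that array enters each of them.

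**Figure D1:**
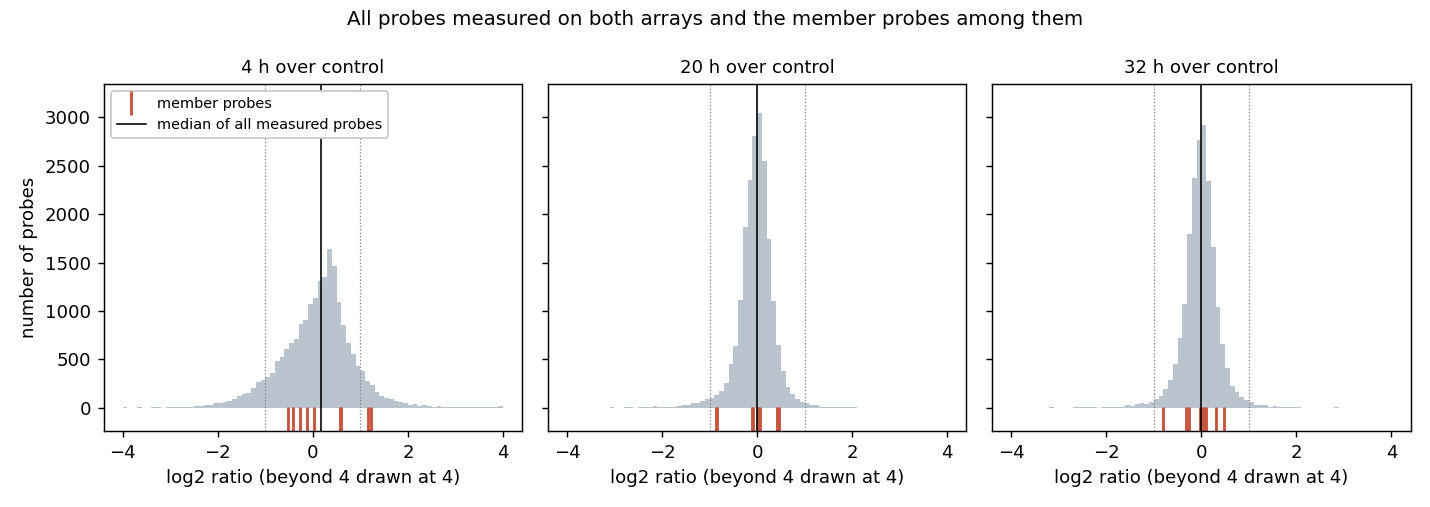
Number of probes by log2 ratio over the control array at 4 h, 20 h and 32 h, for every probe measured on both arrays (grey bars), with the 9 measured probes of the enzymes as red ticks, the median of all measured probes as a black line and 2-fold as dotted lines. At 4 h the ticks run from -0.53 to 1.23, and at 20 h and 32 h all of them lie within the dotted lines.

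Sod2 encodes the manganese superoxide dismutase of the mitochondrial matrix. Its level was 6.95 in the control, 8.18 at 4 h, 7.36 at 20 h and 7.44 at 32 h. The 4 h array was the high one, the control was the low one, and the 20 h and 32 h arrays lay between them and differed by -0.07, less than the spot error of 0.20. Sod2 rose at 4 h by 1.23 ± 0.20 on the log2 scale, or 2.34-fold, and 5.08% of all measured probes were at least as high. The ratio was between 0.82 and 1.23 over the scalings and was below 2-fold under 4 of them. At 20 h and 32 h it was 0.41 ± 0.20 and 0.48 ± 0.20, positive under every scaling, and 7.89% and 6.37% of the measured probes were at least as high.

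Sod1 encodes the copper and zinc enzyme of the cytosol and of the space between the mitochondrial membranes. Its level was 5.01 in the control, 5.61 at 4 h, 5.03 at 20 h and 5.08 at 32 h. With the 75th percentile scaling the 4 h array stood apart, and the control, 20 h and 32 h arrays did not differ beyond the spot error. The ratio at 4 h was 0.60 ± 0.20, below 2-fold, and ranged from 0.19 to 0.60 over the scalings. At 20 h and 32 h it was 0.02 ± 0.20 and 0.06 ± 0.20. This pattern depended on the scaling. With the spike-in controls the ratio was 0.19 at 4 h, within the spot error, and 0.22 at 20 h and at 32 h, beyond it, and with no scaling it was 0.32, 0.35 and 0.24.

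Sod3 encodes the secreted copper and zinc enzyme, which binds to the extracellular matrix. Its level was 3.77 in the control, 3.24 at 4 h, 2.92 at 20 h and 3.50 at 32 h. The control was the highest array and the 20 h array the lowest, but the 4 h array was the lowest with the median, the spike-in controls or no scaling. The ratios to the control were -0.53 ± 0.20, -0.85 ± 0.20 and -0.26 ± 0.20 at 4 h, 20 h and 32 h, each beyond the spot error, below 2-fold, and negative under every scaling tried. At 32 h the ratio was within the spot error with the spike-in controls (-0.11) and with no scaling (-0.086). At 20 h, 2.79% of all measured probes were at least as low. The ratio of 20 h over 32 h was -0.59 ± 0.20, and 1.72% of the probes measured at both times were at least as low.

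Catalase, encoded by Cat, had 2 probes for the same transcript. The 1st starts at base 1411 of the transcript and matches chr2:103297086-103300428 on the minus strand (mm9), where its 60 bases are spread over 3343 bases of the genome. The 2nd starts at base 2065 and matches chr2:103294487-103294546 on the minus strand (mm9). It holds a run of 16 alternating A and C bases. The sequence of the 1st probe is shown because the only catalase ratio to the control past 2-fold comes from it, and no part of it is marked.
Cat, 1st probe: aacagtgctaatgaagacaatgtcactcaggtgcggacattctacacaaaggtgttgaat

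The level at the 1st Cat probe was -2.75 in the control, -1.58 at 4 h, -2.73 at 20 h and -3.07 at 32 h. The 4 h array was high, the control and 20 h arrays did not differ beyond the spot error, and the 32 h array was the lowest. At 4 h the probe was higher by 1.16 ± 0.22, or 2.24-fold, and 5.86% of the measured probes were at least as high. This ratio lay between 0.76 and 1.16 over the scalings, and it was 0.89 with the normexp background correction. The unscaled signal of this probe was low, 165 ± 18.5 in the control and 305 ± 31.1 at 4 h. For comparison, 36 probes that are printed 10 times on each array and had a level within 1 of it in the control had a median SD between spots of 0.12 for this ratio, and 0.31 at most. At 20 h and 32 h the ratio was 0.01 ± 0.22 and -0.32 ± 0.24, and 20 h over 32 h gave 0.33 ± 0.23. The ratio at 32 h was within the spot error with the spike-in controls (-0.16), with no scaling (-0.14) and with normexp (-0.21), and 20 h over 32 h was so with normexp (0.098). With no scaling the ratio at 20 h was 0.35, beyond the spot error.

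At the 2nd Cat probe the level was 1.14 in the control, 1.72 at 4 h, 0.28 at 20 h and 0.33 at 32 h. Here too the 4 h array was the highest, but the 20 h and 32 h arrays were low together and differed by less than the spot error. The ratio was 0.57 ± 0.20 at 4 h, -0.86 ± 0.20 at 20 h and -0.81 ± 0.20 at 32 h, below 2-fold each time and with its sign kept under every scaling. At 4 h it ranged from 0.17 to 0.57 over the scalings and was within the spot error with the spike-in controls. For 66 repeated probes of like level, the SD between spots was 0.042 at the median and 0.12 at most for the ratio at 4 h. Of all measured probes, 2.71% were at least as low at 20 h and 2.54% at 32 h. The probes of Cat thus differ at 20 h, where only the 2nd was below the control beyond the spot error. With 1 value for Cat, the median of its probes, Sod2 was the only gene of the 9 past 2-fold at 4 h.

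The summed signal of the 4 leukocyte marker genes was 23151 in the control and 29418, 15757 and 14670 at 4 h, 20 h and 32 h before scaling. The 2nd Cat probe, with unscaled signals of 2444, 2994, 1690 and 1579, was high and low on the same arrays. The sum came mostly from 1 Itgam probe (22569 in the control), and the other leukocyte probes above background on all 4 arrays did not follow it at 20 h and 32 h. That of Cd68 had 440 in the control and 1531, 636 and 602 after the pulse, and that of Itgam 58.4, 55.5, 56.2 and 61.6. On each array 2 of the 4 genes (Itgam and Cd68) were well above background, and Ptprc and Emr1, of which Ptprc marks leukocytes in general, were below that limit on all 4. The part of leukocyte RNA in the Cat values was not tested.

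**Figure D2:**
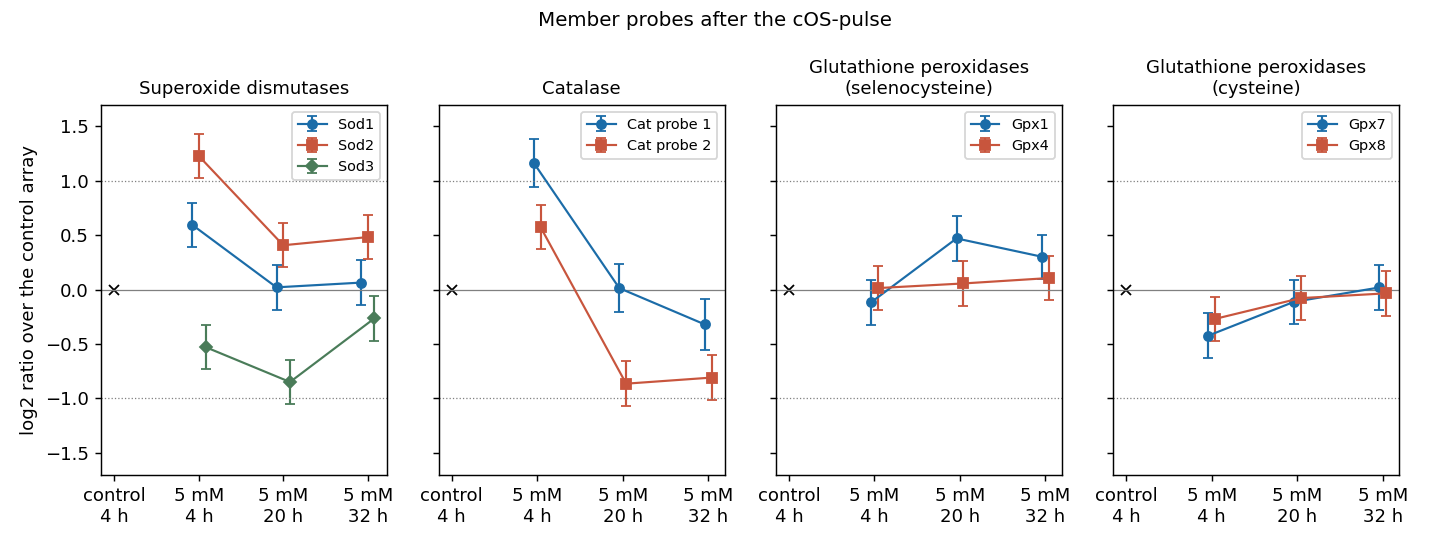
Log2 ratio over the control array for the 9 measured probes at 4 h, 20 h and 32 h after the cOS-pulse, by enzyme group, with bars for the spot error, a cross for the control at 0 and dotted lines at 2-fold. Sod2 (1.23) and the 1st Cat probe (1.16) are past the upper line at 4 h under the 75th percentile scaling, but not under every scaling tried.

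Gpx1 encodes the glutathione peroxidase of cytosol and mitochondria. Its level was 3.67 in the control, 3.55 at 4 h, 4.14 at 20 h and 3.97 at 32 h. The later arrays were the high ones, and neither the control and 4 h nor 20 h and 32 h differed beyond the spot error. At 4 h this did not hold under the other scalings, where the ratio lay beyond the spot error and reached -0.52. Likewise 20 h over 32 h was beyond it with the median (0.24), the spike-in controls (0.21) and no scaling (0.32). The ratio was -0.12 ± 0.20 at 4 h, 0.47 ± 0.20 at 20 h and 0.30 ± 0.20 at 32 h. At 20 h, 5.71% of all measured probes were at least as high, and the ratio was positive under every scaling.

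Gpx4 encodes the enzyme that reduces lipid hydroperoxides in membranes. Its level was 5.65 in the control, 5.66 at 4 h, 5.71 at 20 h and 5.76 at 32 h. The highest and the lowest level differed by 0.11, less than the spot error of 0.20. The ratio at 4 h was 0.01, and it ranged from -0.39 to 0.01 over the scalings. It was below the control beyond the spot error with the median (-0.35), quantile normalization (-0.35), the spike-in controls (-0.39) and no scaling (-0.27). At 20 h it was beyond the spot error with the spike-in controls (0.26) and no scaling (0.39), and at 32 h with quantile normalization (0.24), the spike-in controls (0.26) and no scaling (0.28). Gpx3 encodes the peroxidase secreted into plasma. Its signal was 11.4 in the control and 7.95, 10.71 and 13.7 at 4 h, 20 h and 32 h, not well above background on any array, so no ratio was taken.

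Gpx7 and Gpx8 encode peroxidases of the endoplasmic reticulum that take part in oxidative protein folding. The level of Gpx7 was -0.62 in the control, -1.04 at 4 h, -0.73 at 20 h and -0.60 at 32 h. The 4 h array was the low one, and the other arrays lay within the spot error of one another. The ratio at 4 h was -0.42 ± 0.21, followed by -0.11 ± 0.21 and 0.02 ± 0.21. The level of Gpx8 was 3.12 in the control, 2.85 at 4 h, 3.04 at 20 h and 3.09 at 32 h, so its 4 h array was the lowest as well. The ratio of Gpx8 was -0.27 ± 0.20 at 4 h, and at 20 h and 32 h it was within the spot error. Both genes were below the control at 4 h under every scaling, and neither was past 2-fold. With no scaling their ratios at 20 h were 0.22 and 0.25, beyond the spot error.

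Of the other glutathione peroxidases on the array, Gpx2, known from the gut epithelium, was well above background on all arrays with levels of -2.95, -3.24, -3.30 and -3.22. The control was the highest array, and the ratios were -0.29 ± 0.24, -0.36 ± 0.24 and -0.27 ± 0.24 at 4 h, 20 h and 32 h. Over the scalings they reached -0.70 at 4 h, but -0.03 at 20 h and -0.09 at 32 h, within the spot error. Gpx5 and Gpx6 were not well above background on any array.

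For the probes whose highest and lowest level differed by at least 1 on the log2 scale, the genes with the most similar ratios were sought among 14962 probes measured on all 4 arrays, leaving out those of the enzymes and those whose symbol is not among the RefSeq genes of GRCm38.p6, by the root mean square difference over the 3 ratios to the control. Nearest to Sod2 were 2810408A11Rik (0.021), Bsdc1 (0.023) and Nufip1 (0.024). Nearest to the 1st Cat probe were Esd (0.040), Smad5 (0.061) and Rabep1 (0.061). Nearest to the 2nd Cat probe were Hexim2 (0.054), Itgam (0.055) and Slc17a5 (0.077). The 3 ratios of a probe share the control array, so part of each likeness is built in.

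Related genes were counted at 4 h in the same way, and the lists share the probes of Txnrd1, Srxn1 and Gclm. The shares to set beside these counts are those over all measured probes at 4 h, 8.63% at least 2-fold higher and 7.91% at least 2-fold lower. Over the scalings, the counts among all 39429 probes at 4 h ran from 1313 to 2671 higher and from 1947 to 3824 lower by a measured ratio or a bound. The median of all measured probes fell by up to 0.40. The ranges of the lists below count measured ratios only. They can be set beside those of all probes only as to how the scaling shifts them. The highest and the lowest of a list are named among its measured ratios, and bounds are left out. The positive reference genes of the Nrf2 response had 5 of 6 probes at least 2-fold higher, under every scaling tried. Hmox1, which encodes heme oxygenase, had 3.29 ± 0.20 and 2.91 at its probes, Txnrd1 1.77, Gclm 1.68 and Srxn1 1.67, while Nqo1 had 0.14 ± 0.21. At 20 h the same list had 0 probes past 2-fold, against 0.704% higher and 2.05% lower over all measured probes. At 32 h it had 1, lower, for Nqo1 (-1.04), against 1.05% higher and 1.5% lower over all measured probes. This count at 32 h was 0 to 1 over the scalings, and Nqo1 did not differ from the control beyond the spot error at 20 h (0.03). For 20 h over 32 h Nqo1 had 1.07 ± 0.21, and the list had 1 probe past 2-fold, higher, under every scaling. Over all measured probes, 0.193% were at least 2-fold higher in this comparison and 0.449% at least 2-fold lower.

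Peroxiredoxins, which also reduce hydrogen peroxide, had 1 of 11 measured probes at least 2-fold higher at 4 h (Prdx1, 1.34 ± 0.20), a share close to that of all measured probes, and 1 more by a bound, and the lowest was Prdx3 (-0.27 ± 0.20). Glutathione supply and recycling had 2 of 6 measured probes higher and 1 more by a bound, with Gclc, which encodes the catalytic subunit of the enzyme that starts glutathione synthesis, the highest measured ratio (1.89 ± 0.20) and G6pdx the lowest (-0.13 ± 0.20). The thioredoxin system had 2 of 6 higher, with Txnrd1 the highest and Txnrd2 the lowest (-0.64 ± 0.20). These 2 (Txnrd1 and Srxn1), and Gclm among the glutathione genes, are probes already counted in the Nrf2 list. No measured probe of these lists was at least 2-fold lower with the 75th percentile scaling, and over the scalings 0 to 1 of the thioredoxin system were. The median ratios of the 3 lists were 0.44, 0.60 and 0.38, and over the scalings they ranged from 0.0029 to 0.44, from 0.20 to 0.60 and from -0.024 to 0.38.

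The genes of selenocysteine incorporation, on which Gpx1, Gpx3 and Gpx4 depend for their active site, had 1 of 11 measured probes at least 2-fold higher (Sephs2, 1.24 ± 0.21) and 2 lower at 4 h, against 8.63% and 7.91% over all measured probes. Over the scalings 2 to 5 were lower. The lowest was Pstk (-1.54 ± 0.20), whose product phosphorylates the serine carried by the selenocysteine tRNA. The median of this list was -0.58, and it stayed negative under every scaling, with a range from -0.98 to -0.58. The genes of copper and manganese supply, metals that Sod1, Sod2 and Sod3 carry, had 2 of 7 measured probes higher and 0 lower. Both were probes of Slc11a2, a divalent metal transporter (1.24 ± 0.20 at the higher one), and the lowest was Atp7a (-0.15 ± 0.20). At 32 h the manganese and zinc transporter Slc39a14 was past 2-fold (1.03), a value looked up after it was seen.

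Peroxisome biogenesis and import genes had 1 of 15 measured probes at least 2-fold higher at 4 h (Pex6, 1.22 ± 0.20) and 3 lower, with Pex26 the lowest (-1.27 ± 0.21) and a median of -0.58, against 8.63% higher and 7.91% lower over all measured probes. Over the scalings 3 to 7 were lower, and the median ranged from -0.98 to -0.58. No probe was found for Pex2. Oxidases that produce hydrogen peroxide in peroxisomes had 0 of 6 measured probes higher, 1 higher by a bound, and 1 lower (1 to 3 over the scalings). The 1 was an Acox3 probe (-1.44 ± 0.21), while another probe of Acox3 had the highest measured ratio (0.32 ± 0.20). Of 18 probes for NADPH oxidases and their subunits, which make superoxide or hydrogen peroxide, 5 were measured, and 0 of them were past 2-fold with the 75th percentile scaling (0 to 1 lower over the scalings). Cyba had the highest measured ratio (0.31 ± 0.20) and Ncf4 the lowest (-0.96 ± 0.20), while 2 further probes had bounds above that of Cyba, 1 of them past 2-fold.

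Regulators of these enzymes had 5 of 15 measured probes at least 2-fold higher and 0 lower at 4 h, against 8.63% and 7.91% over all measured probes. The highest was Nfkb1 (1.38 ± 0.21), which encodes a subunit of NF-kappa-B, and the lowest was Foxo1 (-0.79 ± 0.21). Over the scalings tried, 0 to 5 of these probes were at least 2-fold higher and 0 to 1 at least 2-fold lower. The probes of Prdx1, Sephs2, Slc11a2 and Pex6 past 2-fold were likewise below it under at least 1 of the scalings. Outside the list of Nrf2 genes, the related lists had 1 measured probe at least 2-fold higher or lower at 20 h or 32 h, that of Slc39a14. The shares over all measured probes were 0.704% higher and 2.05% lower at 20 h, and 1.05% and 1.5% at 32 h. By a bound, Nox3, named after its values were seen, exceeded the control at 20 h (a lower bound of 3.80-fold), and 20 h over 32 h had a lower bound of 3.72-fold. At 20 h the metal list had 0 to 1 past 2-fold over the scalings.

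**Figure D3:**
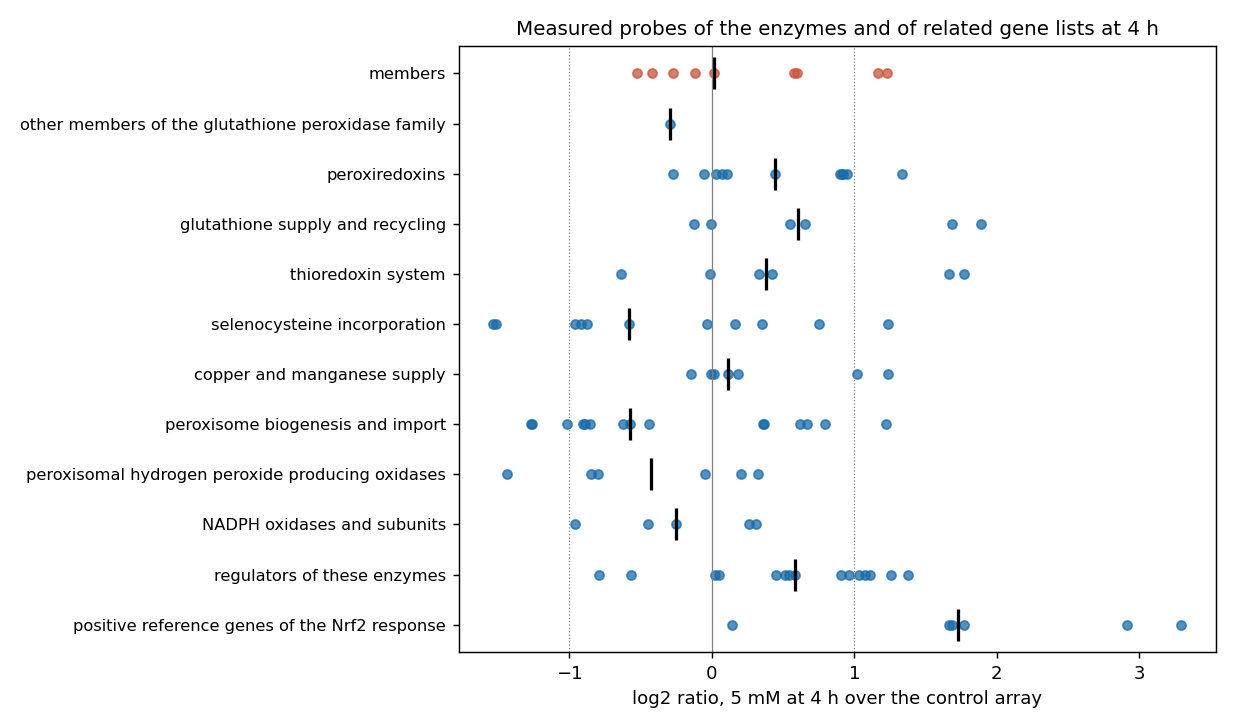
Log2 ratio of the 4 h array over the control for every measured probe of the enzymes (red) and of the related gene lists (blue), with the median of each list as a black bar and 2-fold as dotted lines. The probes of the enzymes run from -0.53 to 1.23, and those of the Nrf2 reference genes from 0.14 to 3.29.

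The 300 bases around the start of each gene (250 before and 50 after it) were taken from RefSeq (GRCm38.p6) for Sod1, Sod2, Cat, Gpx1, Gpx3, Gpx4, Gpx7 and Gpx8, with 4 windows for Gpx4, and the table of windows used here did not include Sod3. They were searched on both strands for the core of the antioxidant response element TGACNNNGC, the AP-1 motif TGACTCA, the heat shock element core GAANNTTC and the E-box CACGTG. Of 32851 such windows, 12.4%, 5.2%, 7.86% and 7.15% hold these motifs. Only the window of Sod1 held any of them, and its motifs are shown in capitals with the bases around them, on the plus strand, in 2 stretches. The 1st, chr16:90220696-90220724, holds TGACNNNGC on the opposite strand, and the 2nd, chr16:90220564-90220591, holds GAANNTTC.
Sod1, TGACNNNGC: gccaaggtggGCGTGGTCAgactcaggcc
Sod1, GAANNTTC: ggctcctcggGAACTTTCtcagtccgca
These matches are a description of the letters, and no binding was measured here.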

How the data were processed

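Intensities of each spot, the scanner's signal after background subtraction, were deposited from Agilent Feature Extraction (10.7.3.1, per the submitters' processing notes), which puts a surrogate value where a spot is too close to background. A second table deposited by the authors held these intensities after division by 1 constant for each array. It was on a linear scale, with column medians of 0.0590, 0.0757, 0.0546 and 0.0587 for the control, 4 h, 20 h and 32 h arrays, and over 44397 spots per array it departed from the constant by at most 0.000122%, so scale and centring were known. Log2 intensities of the spots of a probe were averaged, leaving out spots with an outlier flag (125 to 161 per array, with 0 saturated), and each array was scaled by its own 75th percentile. A ratio was measured where the probe was well above background on both arrays. Where this held on 1 array, the other was set to its own signal or to the lowest signal there that passed, whichever was larger, and the ratio was a bound. The threshold was 2-fold. Ratio errors come from the scanner software, with a median of 10.1% of the signal on the control array. Positions are those of the array annotation (mm9), and exons and UTRs were not used here.

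The genes named were every probe of the 9 genes and of the other glutathione peroxidases, the highest and lowest measured probe at 4 h of each related list, every Nrf2 reference gene, and the 3 genes nearest in pattern to each probe that ranged by at least 1 on the log2 scale. Also named were marker genes of the cell types, Pex2, which had no probe, and Slc39a14 and Nox3, which were named after their values were seen. The members and lists were chosen with earlier results of these data known. A comparison of protein sequences had been planned and was not run, since protein sequences were not used here.

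Alternatives were 5 other scalings (median, quantile, the 75th percentile of probes measured on all arrays, spike-in controls, none), limma's normexp correction (offset 50), 3 other detection rules, flagged spots kept, the deposited table, thresholds of 1.5-fold and 3-fold, and 1 value per gene. The ratio step and some of the scalings were tried on simulated data with 1 shift for all probes and equal numbers of rises and falls. Against the control, the 75th percentile of the 4 h array moved by -0.28 and its median by 0.080, which the simulation did not hold. It thus cannot show which scaling fits that array. Spike-in scaling, bounds and normexp were not part of it. Calculations used Python 3.11.15, numpy 2.4.6, pandas 2.3.3, matplotlib 3.10.9, R 4.3.3 and limma 3.58.1.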

Additional observations from a re-analysis of the deposited data

Results flagged for a closer look

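The probes of Cat lay on opposite sides of the control at different times after the cOS-pulse, but not at the same times. At the 2nd Cat probe, the log2 ratio was 0.57 ± 0.20 at 4 h but -0.86 ± 0.20 at 20 h and -0.81 ± 0.20 at 32 h, so that 4 h exceeded 20 h by 1.44 and 32 h by 1.38. At the 1st Cat probe, it was 1.16 ± 0.22 at 4 h and -0.32 ± 0.24 at 32 h, a difference of 1.48. With the 75th percentile scaling each of these ratios was beyond its spot error, and each kept its sign under every scaling tried. However, the 2nd probe at 4 h was within the spot error with the spike-in controls (0.17), as was the 1st probe at 32 h with the spike-in controls (-0.16), with no scaling (-0.14) and with the normexp background correction (-0.21). At 20 h the 1st probe was on neither side of the control (0.01 ± 0.22), so the fall at this time rests on the 2nd. The 2nd probe holds the run of 16 alternating A and C bases. Its unscaled signal in the control was 2444, against 165 at the 1st probe for the same transcript. The part of the run in its values was not tested. There was 1 array per time, and these differences between times were not tested.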

How the results depend on the processing

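The count of probes at least 2-fold higher at 4 h, 2 in the main setting, was 0 with scaling by the median, by spike-in controls or not at all, and 0 at 3-fold. It was 1 with quantile normalization, with normexp and with 1 value per gene. The median ratio of the enzymes at 4 h, 0.014, became -0.35 with the median, -0.35 with quantile normalization, -0.39 with spike-in controls and -0.27 without scaling. At 20 h it became 0.35 without scaling. At the threshold of 1.5-fold, 3 probes were higher at 4 h, against 2 at 2-fold, and 0 were lower. At the same threshold, 2 probes were lower at 20 h, 1 at 32 h and 1 for 20 h over 32 h, against 0 each at 2-fold. The 1 for 20 h over 32 h was Sod3 (-0.59), which lay almost on the limit. The share of all probes past 1.5-fold was not counted, so whether these counts differ from it cannot be said. Which of the scalings is closest to the RNA content of the cells was not tested.

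Of 180 ratios of single probes under the 5 other scalings, 41 moved by more than the spot error. At 4 h these were all 9 probes with the median, with spike-in controls and with no scaling, and 5 with quantile normalization, and at 20 h all 9 with no scaling. With normexp, 2 of 36 moved by more, those of the 1st Cat probe at 4 h and for 20 h over 32 h, and 0 of 180 did with the 3 other detection rules, under which all 9 probes stayed measured, with flagged spots kept or with the deposited table. Over these alternatives, 0 of the ratios that were beyond the spot error with the 75th percentile scaling changed sign. No paired analysis was possible because there was 1 array per group. The dim 1st Cat probe limits what can be said of its size, and the Gpx3 probe gave no ratio.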
